A study of Mus musculus with 6 samples.

Results

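The genes of sphingolipid and ceramide synthesis were examined in mouse erythroblasts cultured with or without added cholesterol. The set held 10 genes, chosen by symbol: Sptlc1, Sptlc2, Kdsr, Cers2, Cers5, Degs1, Sgms1, Ugcg, Sphk1 and Sgpl1. All 10 were among the 17463 genes in the deposited tables, and all 10 passed the filter on low counts that left 11277 genes to test. The cells came from C57BL/6J fetal liver. TER119-negative erythroblasts were grown in medium with erythropoietin (Epo), and the study's methods state that cells positive for TER119, which erythroid cells display as they mature, were sorted for sequencing. The control group had 3 samples (untreated in the labels, vehicle in the study's text) and the cholesterol group 3 samples with 40 µM cholesterol, both kept in culture for 30 h. Samples are numbered 1 to 3 in each group. Neither the labels nor the methods say what a number stands for or whether the samples came from separate pools of fetal livers. The legend of the study's figure with this sequencing names 3 independent experiments for its data, without tying a sample to an experiment. The p-values therefore measure the spread between these samples, which may be technical. Such a culture is a model of terminal erythroid maturation, up to the enucleated reticulocytes that the study counted in it.

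Sphingolipids are built on a long-chain base rather than on glycerol. Serine palmitoyltransferase joins serine to palmitoyl-CoA in the endoplasmic reticulum, the ketone is reduced, a ceramide synthase adds a fatty acid, and a desaturase turns the product into ceramide. In the Golgi, ceramide becomes sphingomyelin, which packs against cholesterol in the plasma membrane, or glucosylceramide, the root of most glycosphingolipids. Ceramidases release sphingosine, which kinases phosphorylate to the signalling lipid sphingosine 1-phosphate (S1P). Red cells are a main source of the S1P in blood plasma.

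With cholesterol, 9 of the 10 genes did not pass the test in either model, and 1 gene, Cers5, passed only in the model that took samples of the same number as a pair (the block). Cers5, which encodes a ceramide synthase, was lower in the cholesterol sample of each pair, with a log2 fold change of −1.22 (SE 0.31, adjusted p = 0.022, edgeR with the block). The block called 6.85% of all genes tested, and the Cers5 call was lost in DESeq2 with the block (adjusted p = 0.35) and without pair 2 or pair 3. Kdsr, the reductase of the second step, was the only other gene whose groups did not overlap, and it lay higher with cholesterol, where 8% of all genes had groups that did not overlap. Cers2, Degs1, Sphk1, Sgms1, Ugcg and Sptlc1, the 6 genes with the highest FPKM, had log2 fold changes of −0.07 to 0.09 with the block. Outside the set, Asah1, the gene of the lysosomal enzyme that breaks ceramide down, was 3.03-fold lower with cholesterol in the model with the block and was not called with condition alone (adjusted p = 0.864).

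Total counts were 19826797 to 20061702 per sample, so that 3 counts corresponded to 0.148 to 0.156 CPM (counts scaled by depth after TMM normalization). Erythroid RNA was abundant in all samples: 12 erythroid markers, globin genes among them, summed to 92485, 87063 and 110244 CPM in control samples 1 to 3 and to 75406, 84362 and 104664 CPM with cholesterol. The sum was lower in all 3 pairs, and 11 of the 12 had a lower mean with cholesterol. With the block 2 were called lower, where 5.2% of all genes were. Markers of other cells were present too and moved with both the group and the number: in control samples 1 to 3 the 10 neutrophil markers summed to 74.7, 261 and 698 CPM, against 45.0, 114 and 289 CPM with cholesterol. The 10 macrophage markers summed to 30.0, 90.4 and 297 CPM in control and to 20.2, 38.8 and 107 CPM with cholesterol. All 10 neutrophil markers and all 8 macrophage markers tested had a lower mean with cholesterol. With the block 9 and 5 of them were called lower, against the same 5.2% of all genes. Mast cell markers were scarce, with sums of 1.47 to 18.5 CPM in control and 0.493 to 2.86 CPM with cholesterol. The 2 that were tested were called lower with the block, and Tpsb2 and Fcer1a stayed below 3 counts in every sample. Megakaryocyte markers summed to 84.5 to 104 CPM in control and 80.7 to 91.3 CPM with cholesterol. On average 6 of 8 were lower, and 1 was called lower with the block. Liver cell markers summed to 152, 125 and 362 CPM in control and to 264, 86.7 and 303 CPM with cholesterol. Their sum was higher in pair 1 and lower in the others, 2 of 8 had a lower mean, and 0 were called with the block. In such bulk samples, fewer cells of a type and less RNA per cell cannot be told apart.

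The levels of the 10 genes were compared per transcript length, in FPKM as deposited, a unit that divides reads by transcript length and sequencing depth. Cers2 was the highest, at 63.7 ± 6.18 FPKM (SD over 6 samples), followed by Degs1 at 50.8 ± 2.82 FPKM. Sphk1 came next at 18.7 ± 1.88 FPKM. The order shows transcripts of ceramide synthase 2 and the desaturase well above those of the first step. Sptlc1 stood at 7.03 ± 0.613 FPKM and Sptlc2 at 2.14 ± 0.308 FPKM. Sgms1 had 15.4 ± 1.66 FPKM and Ugcg 15.2 ± 1.67 FPKM. Among the lowest, Kdsr had 2.62 ± 0.461 FPKM and Sgpl1 1.25 ± 0.409 FPKM. Cers5 was last, at 0.647 ± 0.364 FPKM. Neighbours whose ranges over the 6 samples overlapped were Sphk1 and Sgms1, Sgms1 and Ugcg, Kdsr and Sptlc2, Sptlc2 and Sgpl1, and Sgpl1 and Cers5. Within every sample, Sphk1 stood above Sgms1, Sptlc2 above Sgpl1 and Sgpl1 above Cers5. For Sgms1 and Ugcg, and for Kdsr and Sptlc2, the order changed between samples and is not resolved. The ranges did not overlap between Cers2 and Degs1, Degs1 and Sphk1, Ugcg and Sptlc1, or Sptlc1 and Kdsr.

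**Figure D1:**
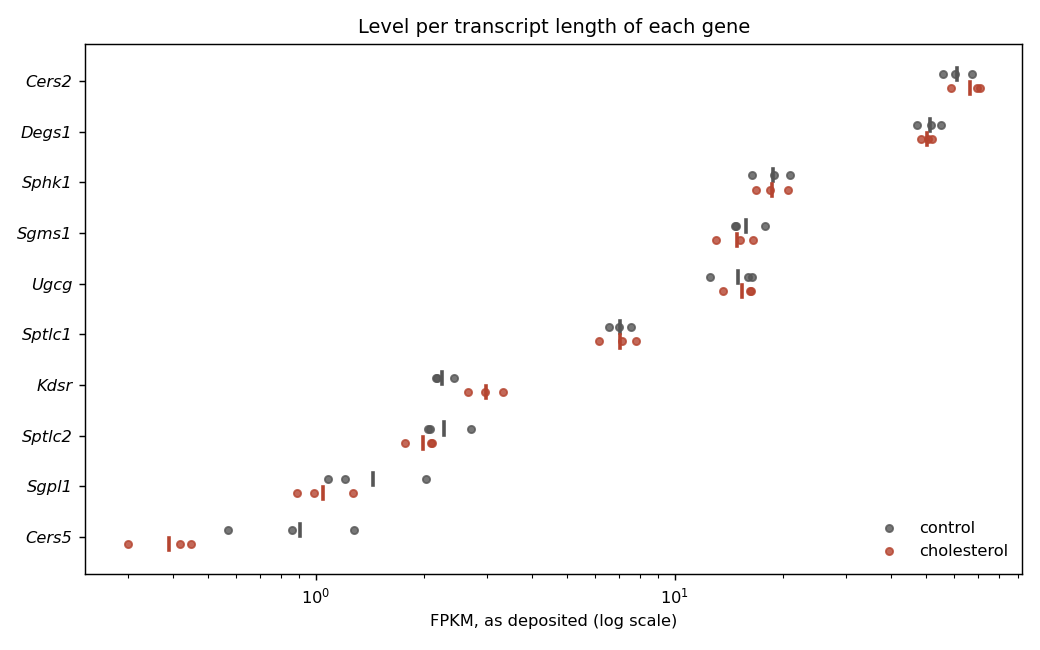
FPKM of each of the 10 genes on a log axis, with 1 point per sample (3 control in grey, 3 cholesterol in red) and a bar at each group mean. The genes span from Cers5, at 0.647 FPKM on average, to Cers2, at 63.7 FPKM, and only Kdsr and Cers5 have groups that do not overlap.

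Because the ceramide synthases Cers2 and Cers5 were the most and the least abundant of the set, the 250 bases before an annotated start of each are shown, taken from RefSeq on GRCm38.p6 and written 5′ to 3′ on the strand of the gene. The Cers2 stretch, chr3:95314940-95315189 on the plus strand, lies before 1 of the 2 starts for which a window was listed, and itself falls within the annotated span of the gene given below, which begins further upstream. It is 74.8% G or C with 24 CpG, against 65.6% and 16 CpG for the Cers5 stretch at chr15:99772516-99772765 on the minus strand. Capitals mark a CCAAT box and the E-box CACGTG.

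Cers2: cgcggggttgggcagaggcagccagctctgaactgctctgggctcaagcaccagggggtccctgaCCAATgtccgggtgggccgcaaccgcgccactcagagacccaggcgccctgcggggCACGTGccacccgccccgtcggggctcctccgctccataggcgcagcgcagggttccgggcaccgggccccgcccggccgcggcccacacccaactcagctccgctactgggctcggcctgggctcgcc

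Cers5: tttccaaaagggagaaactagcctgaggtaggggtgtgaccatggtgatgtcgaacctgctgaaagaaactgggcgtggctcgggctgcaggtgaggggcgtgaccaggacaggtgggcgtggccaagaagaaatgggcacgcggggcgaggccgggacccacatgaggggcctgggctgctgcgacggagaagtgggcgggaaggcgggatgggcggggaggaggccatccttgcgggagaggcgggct

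The letters of 4 motifs were searched on both strands in windows of this length. CCAAT was found for 5 of the 10 genes (Cers2, Sgms1, Sphk1, Sptlc1 and Sptlc2), where 33.8% of all 32851 RefSeq windows hold it. The E-box CACGTG was found for Cers2, Degs1 and Sphk1, against 6.02% of all windows, and the GATA motif AGATAA for Sgms1 and Sphk1, against 9.99%. The sterol regulatory element TCACNCCAC was found for 0 of the 10 genes, against 1.05% of all windows, and for 1 of 15 genes of sterol synthesis with a window, so these exact letters were rare in that pathway too. The 10 genes had 18 windows in all, and a gene with several starts had more chances of a match. A match describes letters and not a bound site.

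Serine palmitoyltransferase commits serine to the pathway. Sptlc1 (chr13:53332748-53377417), which encodes the subunit that both catalytic partners need, had 17.3, 17.9 and 20.3 CPM in control samples 1 to 3 and 15.6, 18.1 and 20.4 CPM with cholesterol. The groups overlapped almost wholly, and number 3 was the highest in both. Its log2 fold change was −0.04 (SE 0.13, 95% interval −0.35 to 0.27) with condition alone and −0.04 (SE 0.08, interval −0.20 to 0.12, adjusted p = 0.84) with the block. Sptlc2 (chr12:87305058-87388355), which encodes a catalytic subunit, had 14.5, 13.9 and 19.4 CPM in control and 14.1, 11.95 and 14.7 CPM with cholesterol. It was lower in all 3 pairs, by a margin that ran from −2.84% in pair 1 to −24.2% in pair 3, while the groups overlapped. Its log2 fold change with the block was −0.22 (SE 0.09, interval −0.41 to −0.04, unadjusted p = 0.0202), and the adjusted p of 0.149 did not pass. With condition alone it was −0.23, and −0.06 without control sample 3. The ratio of Sptlc1 to Sptlc2 in FPKM was 2.79 to 3.40 in control and 2.94 to 4.03 with cholesterol, again with overlap.

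Kdsr (chr1:106720410-106759742) encodes 3-ketodihydrosphingosine reductase, the enzyme after serine palmitoyltransferase. It had 4.09, 3.91 and 3.37 CPM in control samples 1 to 3 and 5.77, 5.14 and 4.35 CPM with cholesterol. Every cholesterol sample lay above every control sample, and the differences within pairs were 40.8%, 31.3% and 28.8%. The mean was 3.79 ± 0.375 CPM in control and 5.08 ± 0.712 CPM with cholesterol (SD, n = 3 each). In both models the log2 fold change was 0.42, with an interval of −0.04 to 0.88 for condition alone and of 0.09 to 0.75 with the block. Its adjusted p with the block was 0.133, and its unadjusted p of 0.0166 was the smallest of any of the 10 genes with a positive fold change. In FPKM the groups were also apart, at 2.16 to 2.42 in control and 2.66 to 3.32 with cholesterol.

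Ceramide synthases attach the fatty acid and differ in the chain length they prefer. Cers2 (chr3:95314771-95323599), whose enzyme makes ceramides with very long chains, had 130.3, 141 and 124 CPM in control and 145, 148 and 127 CPM with cholesterol. The cholesterol sample was higher in all 3 pairs, by 10.9%, 4.71% and 2.97%, though the groups overlapped. The log2 fold change was 0.09 in both models, and with the block its interval was −0.01 to 0.18 (SE 0.04, adjusted p = 0.297). The gene shares 75 bases with Setdb1, which had 77.7 to 121 CPM, and the sources used here do not state whether strand was used in counting. Cers2 took 95.1% to 98.1% of the FPKM of the 6 ceramide synthase genes in control and 97.9% to 98.8% with cholesterol.

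Cers5 (chr15:99735592-99772515), whose enzyme makes ceramides with shorter chains such as palmitoyl ceramide, had the lowest FPKM of the 10 genes. It had 1.77, 1.14 and 2.70 CPM in control samples 1 to 3, from 35, 23 and 52 counts, and 0.887, 0.593 and 0.869 CPM with cholesterol, from 18, 12 and 17 counts. The lowest control sample stood above the highest cholesterol sample, and the differences within pairs were −49.9%, −48.0% and −67.8%. With condition alone the log2 fold change was −1.25 (SE 0.41, interval −2.23 to −0.27, unadjusted p = 0.0201), and its adjusted p was 0.9998. With the block it was −1.22 (SE 0.31, interval −1.87 to −0.57, adjusted p = 0.022), or 2.32-fold lower. The block called 1 of the 10 genes, where it called 6.85% of the genes tested (1.65% higher and 5.2% lower), so 1 call in 10 genes was near the background. DESeq2 with the block did not call Cers5 (adjusted p = 0.35). The call was kept without pair 1 (adjusted p = 0.0289) and lost without pair 2 (0.111) or pair 3 (0.166), with log2 fold changes of −1.34, −1.32 and −0.97. Over all genes these fits called 7.14%, 2.58% and 6.52%. Control sample 3, the highest for Cers5, also had the most neutrophil and macrophage marker RNA. Cholesterol sample 3 had less Cers5 than control samples 1 and 2. Its neutrophil marker sum of 289 CPM stood above their 74.7 and 261 CPM. The part of those cells in the Cers5 result was not tested.

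Degs1 (chr1:182275964-182282854) encodes the desaturase that finishes ceramide. It had 93.6, 87.0 and 84.5 CPM in control and 84.1, 89.8 and 81.9 CPM with cholesterol, so the groups were interleaved. Both models gave a log2 fold change of −0.05, with an interval of −0.16 to 0.05 with the block (SE 0.05, adjusted p = 0.646), from 1603 to 1852 counts per sample.

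**Figure D2:**
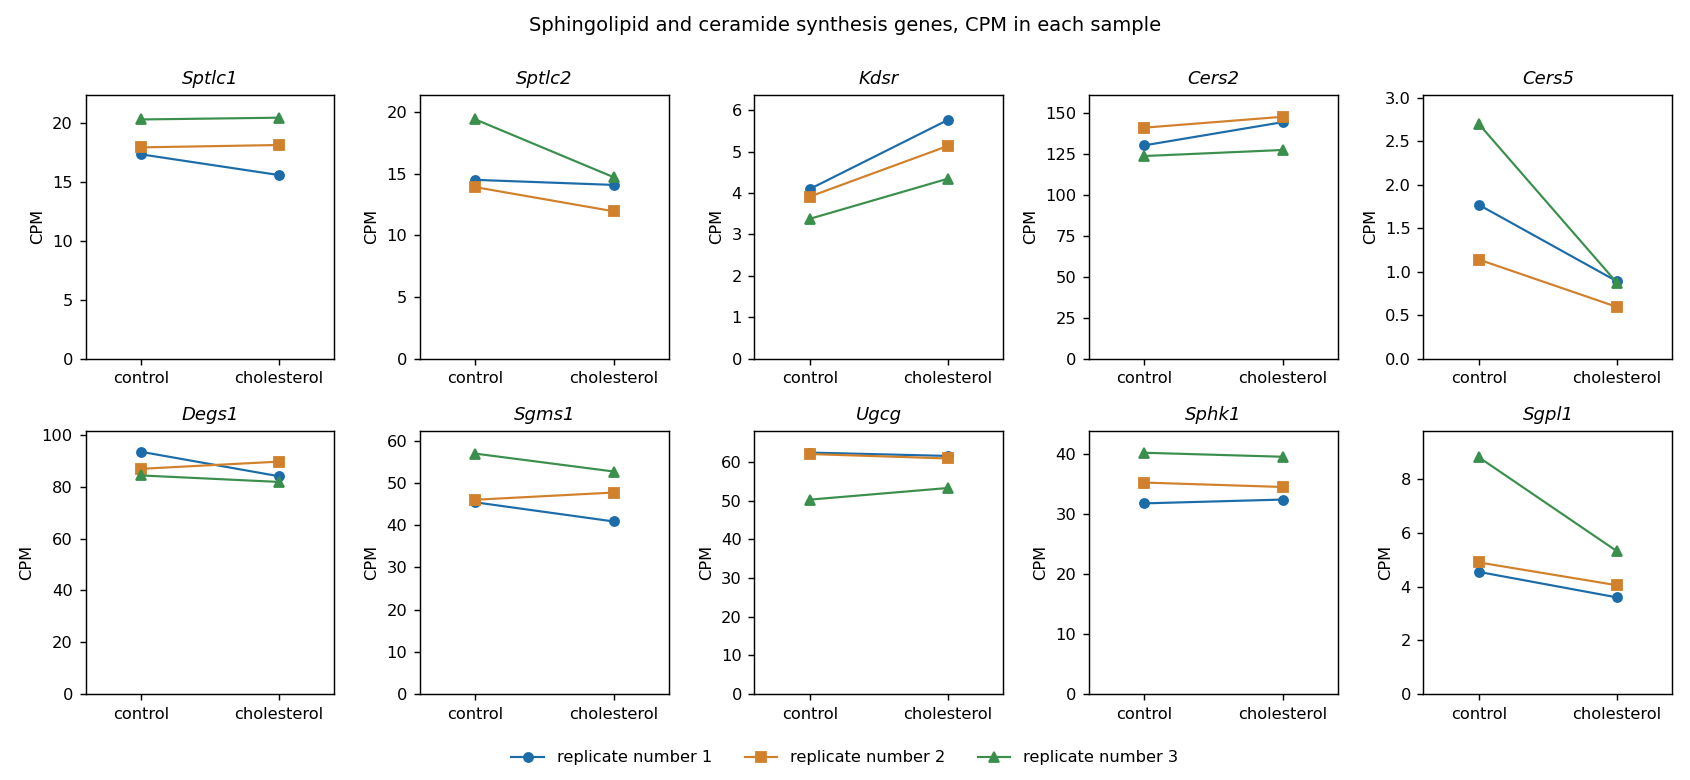
CPM of each of the 10 genes in the 3 control and 3 cholesterol samples, with each axis starting at 0 and a line joining the samples of the same number. The lines of Cers5 all slope down and those of Kdsr all slope up, while those of Ugcg and Sphk1 are nearly level with the numbers apart by more than the groups.

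Neither gene for an enzyme that adds a head group to ceramide passed the test. Sgms1 (chr19:32122727-32389885), the sphingomyelin synthase of the Golgi, had 45.4, 46.1 and 57.0 CPM in control and 40.9, 47.8 and 52.8 CPM with cholesterol. The log2 fold change with the block was −0.07 (SE 0.06, interval −0.19 to 0.05, adjusted p = 0.555). Sgms1 took 96.9% to 98.9% of the FPKM of Sgms1 and Sgms2 together in control and 97.2% to 98.6% with cholesterol. Ugcg (chr4:59189507-59222833), the glucosylceramide synthase, had 62.5, 62.1 and 50.3 CPM in control and 61.6, 61.0 and 53.3 CPM with cholesterol. Numbers 1 and 2 were alike and number 3 was lower in both groups, with a log2 fold change of 0.01 (SE 0.05, interval −0.10 to 0.12, adjusted p = 0.944) with the block.

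The last pair of genes makes and destroys S1P. Sphk1 (chr11:116530836-116536675), which encodes a sphingosine kinase, had 31.7, 35.2 and 40.2 CPM in control and 32.4, 34.5 and 39.5 CPM with cholesterol. Samples of the same number differed by 2.001%, −2.08% and −1.65%, less than the spread between numbers, and the log2 fold change with the block was −0.01 (SE 0.06, interval −0.13 to 0.11, adjusted p = 0.959). Sphk1 made up 48.4% to 51.3% of the FPKM of the Sphk1 and Sphk2 kinases in control and 45.4% to 48.5% with cholesterol. Sgpl1 (chr10:61098642-61147684), the lyase that cleaves S1P irreversibly, had 4.55, 4.90 and 8.82 CPM in control and 3.60, 4.05 and 5.32 CPM with cholesterol. It was lower in all 3 pairs (−20.9%, −17.4% and −39.8%), but number 3 of the cholesterol group lay above control samples 1 and 2. The log2 fold change was −0.49 (SE 0.31, interval −1.25 to 0.26) with condition alone and −0.47 (SE 0.15, interval −0.79 to −0.15, adjusted p = 0.0758) with the block. Without control sample 3 the value for condition alone was −0.13. That sample had the highest level of Sgpl1, and its neutrophil and macrophage markers were highest too. The part of those cells in the result was not tested.

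**Figure D3:**
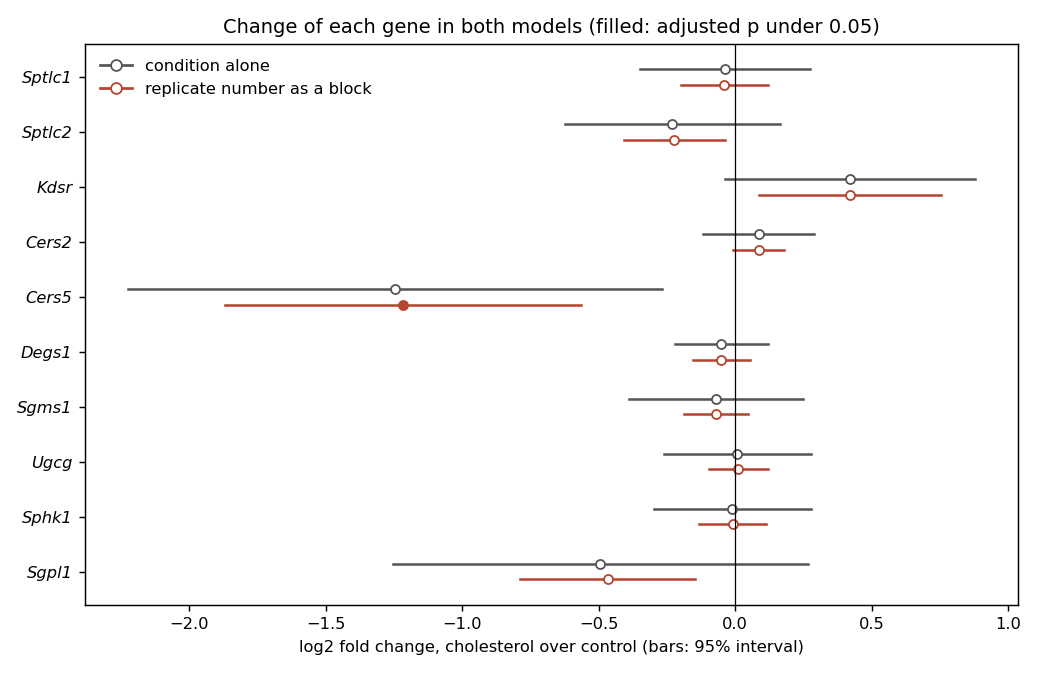
Log2 fold change of the 10 genes, cholesterol over control, with 95% intervals, for edgeR with condition alone (grey) and with the block (red). Filled points passed an adjusted p of 0.05: only Cers5 with the block, at −1.22, did so, and the intervals for Sptlc2, Kdsr and Sgpl1 lie to one side of 0 with the block only.

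As a group, the 10 genes had a median log2 fold change of −0.04 with condition alone and −0.05 with the block, against 0.01 over all genes tested in either model. With condition alone 0 of the 10 passed, where 0.00887% of all genes (1 gene) did, and 1 of the 10 had an unadjusted p under 0.05, where 2.63% of all genes did. DESeq2's Wald test called 0 of the 10 without the block and 0 with it, where it called 0.275% and 2.56% of all genes. With the block 4 of the 10 had an unadjusted p under 0.05 (Cers5, Sgpl1, Kdsr and Sptlc2), against 19.6% of all genes. The groups did not overlap for 1 gene upward and 1 downward, where 3.72% and 4.28% of all genes did not. All 3 pairs moved one way for 5 of the 10 genes (Kdsr and Cers2 upward, Sptlc2, Cers5 and Sgpl1 downward), where 40.1% of all genes did (19.9% upward and 20.1% downward).

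A list of 47 further genes of sphingolipid metabolism was examined beside the 10. Of these, 45 were in the tables and 38 were tested. With the block 5 of the 38 were called lower and 0 higher, where 5.2% and 1.65% of all genes were. The block without pair 1, 2 or 3 called 6, 2 and 4, all lower. With condition alone 0 of the 38 passed and 3 had an unadjusted p under 0.05, and DESeq2 called 1 of them, Asah1, without and with the block. In both models the median over the 38 was −0.06 (log2). The 5 called genes were 1 of 6 tested genes of de novo synthesis (Cers6), 2 of 8 of transfer and head groups (Gltp and B4galt5), 1 of 13 of breakdown (Asah1) and 1 of 11 of S1P handling (Spns2).

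Asah1 (chr8:41340646-41397644) encodes acid ceramidase, which splits ceramide into sphingosine and fatty acid in lysosomes. It had 19.7, 20.5 and 22.2 CPM in control samples 1 to 3 and 5.91, 5.43 and 9.51 CPM with cholesterol. Each control sample stood at more than 2 times any cholesterol sample, and the differences within pairs were −70.0%, −73.4% and −57.1%. With condition alone the log2 fold change was −1.58 (SE 0.23, interval −2.12 to −1.04), with an unadjusted p of 0.000336 and an adjusted p of 0.864. With the block it was −1.60 (SE 0.12, interval −1.85 to −1.34, adjusted p = 3.5e-06), and the call was kept whichever of the 3 pairs was left out. DESeq2 gave an adjusted p of 9.1e-07 without the block and 5.08e-15 with it. Among the 13 genes of breakdown it was the only one called, and the ceramidase genes Acer1, Acer2, Acer3 and Asah2 had intervals that spanned 0. The neutrophil marker sum beside these Asah1 values was 74.7, 261 and 698 CPM in control samples 1 to 3 and 45.0, 114 and 289 CPM with cholesterol. The part of other cells in the difference between the groups was not tested. Asah1 overlaps Frg1 (30.2 to 39.6 CPM) over 8464 bases, so reads could be shared unless strand was used.

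Gltp, which encodes a cytosolic transfer protein for glycolipids, had 67.4, 69.8 and 70.9 CPM in control and 59.2, 58.1 and 55.5 CPM with cholesterol. The groups did not overlap and the 3 values within each were close, which gave a log2 fold change of −0.27 (SE 0.05, adjusted p = 0.00303) with the block. DESeq2 gave adjusted p-values of 0.0913 and 0.0535 without and with the block, so its call depended on the tool. B4galt5, a galactosyltransferase gene of lactosylceramide synthesis, which acts after Ugcg, had 25.0, 21.4 and 22.7 CPM in control and 20.3, 14.4 and 17.9 CPM with cholesterol. Its groups also stood apart, with a log2 fold change of −0.40 (SE 0.08, adjusted p = 0.00258) with the block, and the call was lost without pair 2 (adjusted p = 0.0742) and in DESeq2 with the block (0.101).

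Cers6, a further ceramide synthase gene, had 0.91, 2.67 and 8.36 CPM in control samples 1 to 3 and 0.69, 1.14 and 3.48 CPM with cholesterol. Values differed more between numbers than between groups, and number 3, rich in neutrophil and macrophage marker RNA, was the highest in both groups. The log2 fold change was −1.17 (SE 0.92) with condition alone, −0.02 in that model without control sample 3, and −1.10 (SE 0.23, adjusted p = 0.0066) with the block, and the call was lost without pair 2 (adjusted p = 0.116) or pair 3 (0.166). The part of other cells in this result was not tested. Cers4, another ceramide synthase gene, had 2.48, 2.38 and 2.70 CPM in control and 2.81, 2.72 and 2.56 CPM with cholesterol, and for Cers6 and Cers4 alike the groups overlapped. Cers5 held 0.832% to 2.18% of all ceramide synthase FPKM in control and 0.419% to 0.699% with cholesterol.

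Spns2, an S1P exporter gene of endothelial cells, had 11.0, 11.3 and 7.16 CPM in control and 8.03, 7.85 and 6.39 CPM with cholesterol. It was lower in all 3 pairs although the groups overlapped, with a log2 fold change of −0.39 (SE 0.11, adjusted p = 0.0422) with the block, a call that was lost without pair 1 (adjusted p = 0.179) or pair 2 (0.391). It shares 133 bases with Mybbp1a (115 to 210 CPM), so reads could be shared unless strand was used. Mfsd2b, the S1P exporter gene of red cells, had 380, 410 and 447 CPM in control and 381, 404 and 451 CPM with cholesterol. Within pairs it differed by 0.277%, −1.54% and 0.922%, with a log2 fold change whose interval was −0.09 to 0.08 (SE 0.04, adjusted p = 0.991) with the block. Of the S1P receptors, S1pr4 had 1.73 to 3.74 CPM and S1pr2 0.708 to 3.01 CPM over the 6 samples. S1pr1 had 2 to 15 counts and was not tested, S1pr5 had 0 to 2 counts, and S1pr3 had 0 counts in every sample, which allows a level of up to 0.148 to 0.156 CPM at 3 counts.

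**Figure D4:**
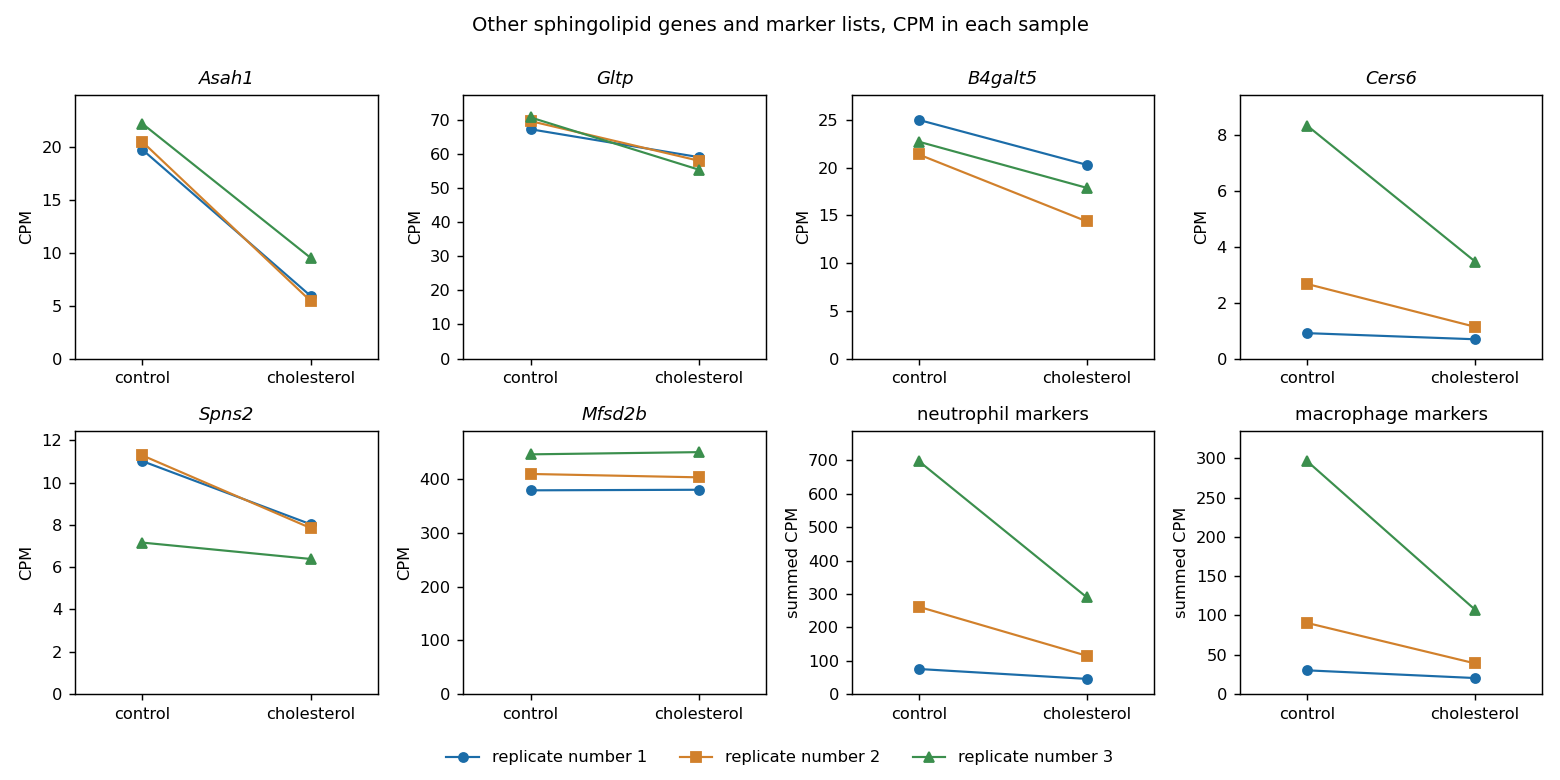
CPM of Asah1, Gltp, B4galt5, Cers6, Spns2 and Mfsd2b, and the summed CPM of 10 neutrophil and 10 macrophage markers, in each sample, with lines joining samples of the same number and axes from 0. Asah1 drops in all 3 pairs from nearly equal control values of 19.7 to 22.2 CPM, Mfsd2b is level, and Cers6 and both marker sums are highest in number 3 of each group.

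The 6 genes next by p-value with the block were not called, though Cerk (adjusted p = 0.00883) and Psap (0.0111) were called lower in that model without pair 1. Cerk, the ceramide kinase gene, had 2.38, 3.57 and 5.30 CPM in control and 2.27, 1.53 and 2.76 CPM with cholesterol (log2 fold change −0.75, adjusted p = 0.0566). Psap, whose product gives the saposins that help lysosomal enzymes reach sphingolipids, had 199, 238 and 345 CPM in control and 198, 207 and 271 CPM with cholesterol (−0.19, adjusted p = 0.0695), and it too was highest in number 3. Plpp1, a lipid phosphatase gene, was higher in all 3 pairs (0.41, adjusted p = 0.0804), where 19.9% of all genes were. It shares 115 bases with Mtrex (127 to 140 CPM), so reads could be shared unless strand was used. Positive values were also found for Sphk2, the second sphingosine kinase gene (0.13, adjusted p = 0.163), which shares 2536 bases with the ribosomal protein gene Rpl18. The same held for Plekha8, a glucosylceramide carrier gene (0.27, adjusted p = 0.219), and for Sgpp1, an S1P phosphatase gene (0.12, adjusted p = 0.293).

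**Figure D5:**
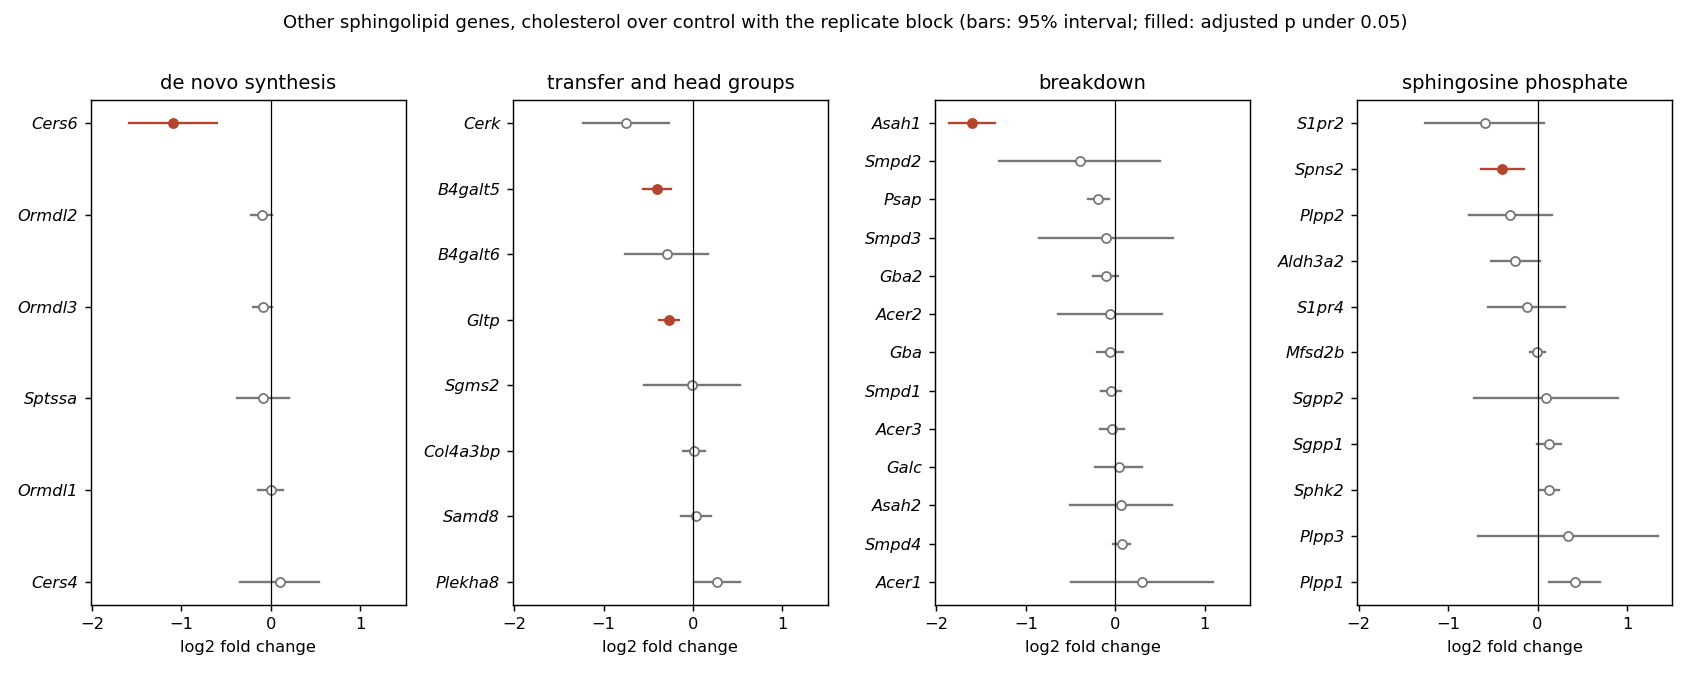
Log2 fold change, cholesterol over control, of the 38 further sphingolipid genes tested, with the replicate block and 95% intervals, in 4 panels by role. Filled points passed an adjusted p of 0.05; the 5 that did are Cers6, B4galt5, Gltp, Asah1 and Spns2, all below 0, and the longest shift is that of Asah1 at −1.60.

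The 20 genes of sterol synthesis gave a measure of scale. The median over these 20 was −1.07 with condition alone and −1.03 with the block (log2), where the 10 sphingolipid genes had −0.04 and −0.05. With condition alone 0 of the 20 passed and 18 had an unadjusted p under 0.05. With the block 11 of the 20 were called lower, where 5.2% of all genes were, and 14, 4 and 19 without pair 1, 2 or 3. DESeq2 called 11 without the block and 16 with it. The groups did not overlap, downward, for 15 of the 20, where 4.28% of all genes did not. Hsd17b7, a sterol reductase gene, had 35.9, 33.0 and 24.0 CPM in control and 15.8, 12.4 and 11.96 CPM with cholesterol, and Hmgcs1, at the head of the pathway, had 61.4, 47.6 and 25.6 CPM in control and 11.7, 10.9 and 9.66 CPM with cholesterol. Their log2 fold changes of −1.21 and −2.02 with the block had adjusted p-values of 1.51e-08 and 0.0504. Asah1 and Cers5 had the lowest log2 fold changes of the 10 genes and the 38 further sphingolipid genes in that model.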

How the data were processed

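RNA-seq of 3 control and 3 cholesterol-treated samples was used. The authors deposited expected counts per gene, of which 27.9% to 29.5% per sample were not whole, and normalized values of unnamed unit, taken as FPKM because count, total and value give a nearly constant length for most genes. The submitters' processing notes name HISAT2 2.0.4, Bowtie2 2.2.5, RSEM 1.2.12, DESeq2 1.4.5 and GRCm38.p6, without their roles. Annotation and filters are not given in the sources used here.

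Counts were rounded and tested with edgeR 4.0.16 in R 4.3.3 (filterByExpr with at least 10 counts in enough samples and 15 in total, TMM, robust quasi-likelihood test, Benjamini-Hochberg over 11277 genes). Condition alone was the main model. The alternatives were the replicate number as a block, DESeq2 1.42.0, other filters, limma 3.58.1 on log2(FPKM + 1) or log2(FPKM + 0.1), and samples or pairs left out. Deviations from group means correlated at 0.729, 0.348 and 0.825 between same-numbered samples, all above 0.1, so the numbers in the sample labels were taken as pairs. Samples of unlike number were not compared in this way, so these values do not establish that same-numbered samples were matched. Exact permutation of 3 against 3 allows no p below 0.1, so none is printed.

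The genes and lists were chosen with earlier results of these data known. Named were all 10 genes, the further genes called in either model, the 6 next by p with the block, Mfsd2b, the S1P receptors and the 2 sterol genes with the smallest p. The 3 genes most like each of the 3 members with the smallest p were taken by Pearson r of log2 CPM. Gene positions are those of RefSeq on GRCm38.p6. The methods were tested on simulated data.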

Additional observations from a re-analysis of the deposited data

How the results depend on the processing

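With 3 samples a group and condition alone, 1 gene of 11277 was called, so a gene outside the calls cannot be taken as unaffected, and Cers5 rests on 12 to 52 counts a sample. The replicate block, a paired fit, raised the calls to 772 over all genes, 1 of the 10 members, 5 of the further sphingolipid genes and 11 of the sterol genes. DESeq2's Wald test gave 31, 0, 1 and 11 calls, and 289, 0, 1 and 16 with the block. Leaving out 1 sample with condition alone gave 1 to 8 calls over all genes, 0 to 0 members, 0 to 1 further genes and 0 to 3 sterol genes, the most over all genes without control sample 3 and for the further genes without cholesterol sample 3 (Asah1, adjusted p = 0.0437). The block without pair 1, 2 or 3 gave 821, 296 and 726 calls over all genes, 1, 0 and 0 members, 6, 2 and 4 further genes and 14, 4 and 19 sterol genes. No member changed sign under any setting that kept all samples. With samples or pairs left out, log2 fold changes turned sign within −0.133 to 0.059 for Sptlc1 (−0.069 to 0.016 with the block), −0.155 to 0.044 for Sgms1, −0.087 to 0.075 for Ugcg (−0.026 to 0.031), −0.092 to 0.083 for Sphk1 (−0.025 to 0.0014), −0.099 to 0.0039 for Degs1 with the block, −0.367 to 0.045 for Psap and −0.068 to 0.061 for Mfsd2b (−0.011 to 0.0087). Mfsd2b was also 0.0033 with no filter and 0.028 and 0.029 with limma. Cers6 ranged from −2.11 to −0.02 with condition alone, the smallest size without control sample 3. The cause of these differences was not tested.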

Other observations

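The length that a gene's count and FPKM imply is an average over its transcripts. It lay between 1507 and 1994 bases for Kdsr across the 6 samples, at 1677, 1852 and 1507 bases in control and 1994, 1583 and 1617 bases with cholesterol, with no order between the groups. For Asah1 it was 2350, 2370 and 2326 bases in control and 2489, 2556 and 2353 bases with cholesterol. The 2 samples with the fewest Asah1 counts had the longest. For Cers5 it stayed at 2016 to 2041 bases.

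The genes whose log2 CPM followed a member most closely over the 6 samples were named by rank of Pearson r, as a description of points that share 3 replicate numbers and 2 groups. For Cers5 they were Rbms1 (r = 0.995), Miip (0.988) and Aldh4a1 (0.982). For Sgpl1 they were Ifngr2 (0.998), Cd74 (0.998), an invariant chain gene of antigen-presenting cells that ranged from 1.43 to 27.0 CPM, and Gpx4 (0.996). For Kdsr they were Zbtb26 (0.996), Cdk20 (0.993) and Zfp329 (0.992).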
